A study of Mus musculus with 18 samples.

Results

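The collagen genes of the mouse prostate were taken as every gene whose symbol is Col, a number, a and a number, which gave 44 of the 55469 genes in the deposited RNA-Seq tables. Total RNA of the ventral plus lateral lobes of male mice on a C56NL/6N background was sequenced in 18 libraries, 3 in each of 6 groups. WT mice (ELAC2+/+) were compared at 10 and at 30 weeks of age with age- and littermate-matched KO mice (ELAC2-/-), in which Cre recombinase driven by the probasin promoter deletes exon 8 of Elac2 in prostate epithelium, and with A537T mice, which carry the alanine to threonine change of ELAC2 on both alleles in every cell. Elac2 encodes the ribonuclease that removes the 3′ trailers of precursor transfer RNAs. The probasin promoter drives Cre in prostate epithelial cells, whereas the A537T change is present in stromal cells too.

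Collagens are trimeric proteins of the extracellular matrix. In the fibrillar collagens, such as types I, III and V, 3 chains wind into a long continuous triple helix that assembles into the fibrils of connective tissue, made mainly by fibroblasts and smooth muscle cells. Type IV collagen has a helix with many breaks and forms the sheet-like network of the basement membrane that lies under epithelium and around smooth muscle fibres, capillaries and nerves. The prostate is made of epithelial ducts, each on a basement membrane and wrapped in a fibromuscular stroma, so that both kinds of collagen are usual constituents of the gland. Of the 44 genes, 11 are fibrillar, 6 encode type IV chains, 6 type VI chains (beaded microfibrils), 9 are FACIT collagens (which decorate fibrils), 4 are transmembrane collagens, 3 are short-chain network collagens, 2 are multiplexins (types XV and XVIII of the basement membrane zone) and 3 others are Col7a1, Col26a1 and Col28a1.

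The difference between an unbroken and an interrupted helix can be read in the coding sequences, where a glycine codon (GG and any base) opens each triplet of codons of a helix. The stretches below, each 30 codons of the longest coding transcript in GENCODE M21 on GRCm38, are shown because they carry the feature that separates the classes compared here, and capitals mark the glycine codons. The first pair begins the longest repeat of the chain, and the other 3 run across the end of one, where the spacing of the capitals breaks.
Col1a1: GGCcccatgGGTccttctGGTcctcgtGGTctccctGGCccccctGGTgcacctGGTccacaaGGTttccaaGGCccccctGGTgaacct
Col3a1: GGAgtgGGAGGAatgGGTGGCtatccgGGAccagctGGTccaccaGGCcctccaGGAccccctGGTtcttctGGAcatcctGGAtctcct
Col4a1: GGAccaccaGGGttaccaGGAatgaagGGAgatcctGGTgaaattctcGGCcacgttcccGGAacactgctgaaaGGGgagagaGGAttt
Col4a5: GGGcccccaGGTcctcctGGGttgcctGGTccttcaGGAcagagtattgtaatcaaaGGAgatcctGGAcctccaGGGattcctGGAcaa
Col4a6: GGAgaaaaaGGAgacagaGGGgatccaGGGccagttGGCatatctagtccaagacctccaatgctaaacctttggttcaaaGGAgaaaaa

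The longest run of such triplets measured 338 in Col1a1, 339 in Col1a2 and 344 in Col3a1, and ranged from 216 (Col24a1) to 344 over the 11 fibrillar genes. In the 6 type IV genes it ranged from 39 (Col4a3) to 66 (Col4a2), and the helix was split into 22 to 27 runs of at least 5 triplets, against 2 or 3 in the fibrillar genes. Col4a5 and Col4a6 had 23 and 25 such runs and the same coding length of 1691 codons. The longest run of the 6 type VI genes lay between 37 and 87, and that of Col7a1, the chain of the anchoring fibrils under stratified epithelium, was 75 with 20 runs in all. Thus the longest run of each fibrillar gene exceeded that of every type IV gene.

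Libraries held 6569642 to 11225281 recovered reads, and collagen genes took 0.131 to 0.56% of the counts. Several libraries differed in marker transcripts of other tissues. At 10 weeks the summed share of 28 skeletal muscle markers was 4.01, 6.67 and 12.9% of counts in WT, 0.0668, 2.09 and 0.062% in KO and 4.43, 3.28 and 1.56% in A537T libraries, and it was at most 0.0737% in any library at 30 weeks. The summed share of 9 seminal vesicle markers was 4.64, 1.77 and 0.000808% in WT, 9.47, 6.56 and 10.3% in KO and 0.191, 0.136 and 0.0374% in A537T libraries at 10 weeks. At 30 weeks it was under 0.001% in the 3 WT libraries, in KO library 5AF and in A537T library 8AF, and it was 8.53 and 6.32% in the other KO and 7.24 and 9.17% in the other A537T libraries. Of the seminal vesicle markers, 7 of 9 were at 0 in at least 1 of the 3 WT libraries at 30 weeks. Summed over 10 genes, smooth muscle markers took 0.189 to 1.04%, lowest in WT library 12AF and highest in A537T library 18AF, and 12 fibroblast markers took 0.0551 to 0.161%. No smooth muscle or fibroblast marker was at 0 in any library, and 13 prostate epithelium markers took 0.434 to 4.7%, all present. In these bulk samples, fewer stromal cells and less collagen RNA per cell cannot be told apart. Normalized counts of Elac2 were 124, 142 and 166 in WT and 119, 111 and 115 in KO libraries at 10 weeks, and 150, 153 and 194 against 98, 151 and 122 at 30 weeks. These counts cover the whole gene in a mixture of cell types, so they check the deletion of a single exon in epithelium only weakly, and the difference was not called at either age (limma adjusted p = 0.325 and 0.478). In A537T mice, whose change leaves the gene in place, the log2 fold change of Elac2 was 0.19 at 10 and -0.23 at 30 weeks.

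Levels were compared between genes as CPM (the count scaled to the library's total) divided by the length of all exons of the gene, written CPM per kb. WT levels are those of the KO tables. The same WT libraries stand in the A537T tables too, where the CPM of 5.26% of the genes tested in every table differed by over 10% in all 3 libraries at 10 weeks, Col5a1, Col6a3, Col7a1 and Col9a2 among them, and of 4.09% at 30 weeks, with no collagen gene among them. By the median of the 9 libraries of 10-week-old mice, the order was Col6a3 (60.0), Col3a1 (57.9), Col4a1 (37), Col6a1 (29.5), Col1a1 (25.8), Col1a2 (25.6), Col4a6 (24.6) and Col4a2 (23.1 CPM per kb). At 30 weeks it was Col3a1 (22.1), Col4a1 (20.7), Col6a3 (20.0), Col6a1 (15.6), Col1a2 (11.6), Col4a2 (10.5) Col1a1 (7.38) and Col12a1 (7.12 CPM per kb). The ranges over 9 libraries of neighbours in either order overlapped, so that their rank is not fixed by these data. The order also depended on the length used, since by the longest coding transcript Col1a2 had rank 3.0 at 10 weeks (59.5) and rank 2.0 at 30 weeks (26.9 CPM per kb), with Col3a1 as the first at both ages. Chains of type I, III, IV and VI collagen thus supplied the upper part of both lists, and Col2a1, of the cartilage collagen type II, was below the filter on low counts.

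Among the fibrillar chains, Col3a1, the only chain of type III collagen, was the highest. Its level was 58.2, 45.5 and 42.2 CPM per kb in WT, 57.9, 46.6 and 57.7 in KO and 58.5, 63.8 and 106 in A537T libraries at 10 weeks, and 12.8, 24.1 and 22.2, 20.6, 18.7 and 21, and 26.4, 22.1 and 31.3 in the same genotypes at 30 weeks. The highest of the 9 libraries at 10 weeks was 18AF of the A537T group, and at 30 weeks all 9 libraries lay under the lowest value of the younger mice. Col1a1, which gives 2 of the 3 chains of type I collagen, was at 26.4, 18.3 and 9.62 CPM per kb in WT, 28, 24.6 and 25.8 in KO and 24.2, 30.1 and 45.2 in A537T libraries at 10 weeks, and 6.38, 10.7 and 10.1, 6.6, 7.38 and 7.04, and 7.22, 8.85 and 7.53 in the same genotypes at 30 weeks. WT library 12AF was the lowest at 10 weeks, within the range of the 30-week-old libraries. Col1a2, the other type I chain, was at 28.4, 20.0 and 16.2 CPM per kb in WT, 27.8, 25.1 and 25.6 in KO and 25.3, 30.3 and 48.7 in A537T libraries at 10 weeks, and 8.65, 11.3 and 11.6, 10.1, 11.8 and 9.78, and 11.9, 13.7 and 12.2 in the same genotypes at 30 weeks. Its values at the 2 ages did not overlap, and Col1a2 exceeded Col1a1 per kb in all 9 libraries at 30 weeks, by 1.06 to 1.65 times, whereas at 10 weeks the ratio was 0.993 to 1.69. By the length of the longest coding transcript the ratio was 2.08 to 3.54 at 10 and 2.22 to 3.47 at 30 weeks, so that its size rests on the length used.

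**Figure D1:**
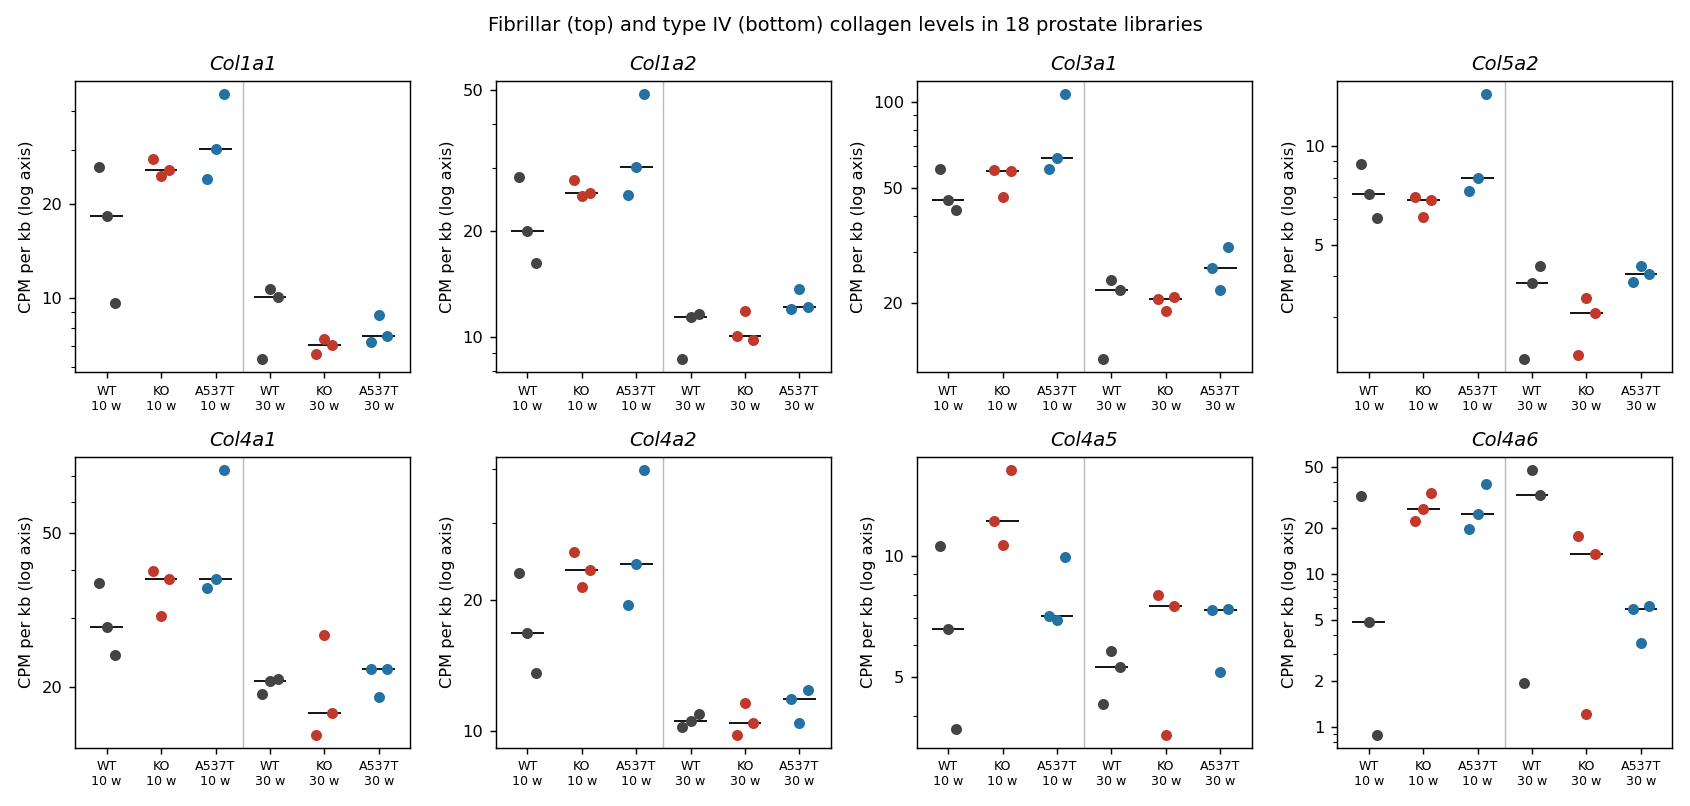
Level of 4 fibrillar (top row) and 4 type IV collagen genes (bottom row) in CPM per kb on a log axis, with 1 point per library and the median of the 3 libraries of each group as a line. Library 18AF is the highest of the A537T points at 10 weeks in all 8 panels, and Col4a6 spans the widest range within groups.

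The chains of type V collagen, which limits the width of type I fibrils, were lower. Col5a1 measured 10.3, 7.14 and 7.62 CPM per kb in WT, 10.2, 6.77 and 6.83 in KO and 7.7, 11.2 and 18.1 in A537T libraries at 10 weeks, and 3.83, 4.73 and 3.69, 2.33, 4.0 and 2.56, and 3.25, 3.71 and 4.36 in the same genotypes at 30 weeks. Col5a2 measured 8.85, 7.15 and 6.03 CPM per kb in WT, 6.99, 6.05 and 6.84 in KO and 7.28, 7.98 and 14.4 in A537T libraries at 10 weeks, and 2.24, 3.81 and 4.3, 2.31, 3.43 and 3.1, and 3.84, 4.31 and 4.06 in the same genotypes at 30 weeks. Both again peaked in library 18AF. Col5a3, another type V chain, stood at 6.1, 3.96 and 5.14 CPM per kb in WT, 4.0, 4.12 and 3.62 in KO and 3.59, 3.9 and 4.59 in A537T libraries at 10 weeks, and 0.625, 2.12 and 1.82, 0.949, 1.3 and 1.08, and 1.36, 1.12 and 1.59 in the same genotypes at 30 weeks. For Col5a3 the peak lay in WT library 10AF instead, and 18AF was inside the range of the other 10-week libraries. The remaining fibrillar genes were near the low end of what was tested. Col27a1 had 1.03, 0.766 and 0.545 CPM per kb in WT, 1.31, 0.905 and 0.994 in KO and 0.75, 0.877 and 0.918 in A537T libraries at 10 weeks, and 0.515, 0.577 and 0.587, 0.348, 0.465 and 0.406, and 0.66, 0.517 and 0.595 in the same genotypes at 30 weeks. Col11a1 had 0.623, 0.138 and 0.0386 CPM per kb in WT, 0.471, 0.203 and 0.561 in KO and 0.28, 0.336 and 0.484 in A537T libraries at 10 weeks, and 0.263, 0.599 and 0.159, 0.0913, 0.294 and 0.154, and 0.243, 0.0895 and 0.286 in the same genotypes at 30 weeks, and Col11a2 had 0.444, 0.284 and 0.358 CPM per kb in WT, 0.235, 0.272 and 0.376 in KO and 0.225, 0.319 and 0.524 in A537T libraries at 10 weeks, and 0.145, 0.161 and 0.196, 0.207, 0.13 and 0.143, and 0.15, 0.183 and 0.154 in the same genotypes at 30 weeks. Type XI chains are best known from cartilage, and Col11a1 varied widely within the WT group at 10 weeks.

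The products of Col4a1 and Col4a2 form the type IV network found in nearly all basement membranes. Their median within-group SD on the log2 scale over the 4 tables was the lowest of the type IV chains. It was 0.16 for Col4a2 and 0.20 for Col4a1, beside 0.23 for Col4a4 and 0.28 for Col4a3. In the A537T table at 10 weeks, however, the SD of Col4a3 (0.312) was under that of Col4a2 (0.347) and Col4a1 (0.352). Col4a1 was at 37, 28.5 and 24.2 CPM per kb in WT, 39.8, 30.4 and 37.9 in KO and 35.9, 37.9 and 72.6 in A537T libraries at 10 weeks, and 19.2, 20.7 and 20.9, 15, 27.2 and 17.1, and 22.2, 18.8 and 22.2 in the same genotypes at 30 weeks. Col4a2 was at 23.1, 16.8 and 13.6 CPM per kb in WT, 25.7, 21.4 and 23.4 in KO and 19.5, 24.1 and 39.8 in A537T libraries at 10 weeks, and 10.2, 10.5 and 11, 9.81, 11.6 and 10.4, and 11.9, 10.4 and 12.4 in the same genotypes at 30 weeks. At 30 weeks all Col4a2 values fell between 9.81 and 12.4 CPM per kb, under those of the younger mice. Col4a3 was at 1.68, 1.15 and 0.741 CPM per kb in WT, 1.9, 1.92 and 1.7 in KO and 1.21, 1.44 and 1.28 in A537T libraries at 10 weeks, and 0.991, 1.21 and 0.97, 0.869, 1.32 and 1.27, and 1.05, 1.13 and 0.942 in the same genotypes at 30 weeks. Col4a4 was at 2.65, 1.99 and 1.28 CPM per kb in WT, 2.84, 2.6 and 2.71 in KO and 3.13, 2.52 and 2.17 in A537T libraries at 10 weeks, and 1.6, 1.46 and 1.42, 1.33, 2.22 and 1.42, and 1.64, 2.24 and 1.42 in the same genotypes at 30 weeks. These partners of the network known from kidney glomeruli were present at low level in every library. Col4a5 was at 10.6, 6.56 and 3.71 CPM per kb in WT, 12.2, 10.6 and 16.3 in KO and 7.09, 6.91 and 9.93 in A537T libraries at 10 weeks, and 4.29, 5.79 and 5.29, 7.99, 3.59 and 7.5, and 7.33, 5.13 and 7.36 in the same genotypes at 30 weeks. Its highest 10-week values came from KO libraries. Col4a6, the partner of Col4a5 in the basement membranes of smooth muscle and some epithelia, was at 32.5, 4.85 and 0.89 CPM per kb in WT, 22.2, 26.7 and 33.7 in KO and 19.7, 24.6 and 38.4 in A537T libraries at 10 weeks, and 1.92, 47.7 and 32.6, 17.8, 1.22 and 13.5, and 5.87, 3.51 and 6.18 in the same genotypes at 30 weeks. Single WT libraries at both ages and KO libraries at 30 weeks thus differed for Col4a6 by more than a factor of 10, with WT libraries 12AF and 11AF low at 10 weeks and WT library 1AF and KO library 5AF low at 30 weeks.

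Within-group spread ranked the same way. The within-group SD of Col4a6 on the log2 scale was higher than that of 97.7 to 99% of all genes tested, whatever the table. Col28a1, which is known from Schwann cell basement membrane, stood at the 95.3 to 98.3 percentile, and Col11a1 at 92.3 to 95.9. By contrast, the median within-group SD over the 4 tables was 0.16 for Col4a2, 0.16 for Col6a1, 0.18 for Col1a2 and 0.20 for Col4a1. Each WT library appears in the tables of both mutant lines, and for 29 of the 35 collagen genes tested everywhere its CPM in the 2 tables was within 10% in all 6 WT libraries. The exceptions were Col5a1, Col6a3, Col7a1, Col9a2, Col11a2 and Col13a1, with the widest departure of 1.31 times for Col7a1, and the reason is not given in the sources used here.

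Collagen levels were lower in the older mice. Of the 35 collagen genes tested in every table, 30 had a lower median CPM in the 9 libraries at 30 weeks than in the 9 at 10 weeks, where the share over all 14067 such genes was 52.0%. The 2 ages did not overlap for 10 of them, all lower at 30 weeks (Col1a2, Col3a1, Col4a2, Col5a1, Col5a2, Col5a3, Col6a1, Col6a2, Col11a2 and Col14a1), which held for 1.6% of all genes. All 9 fibrillar genes tested were lower, with 10-week to 30-week ratios of medians of 3.5 for Col1a1, 3.09 for Col5a3, 2.62 for Col3a1 and 2.21 for Col1a2. The lowest fibrillar ratio was 1.38, for Col11a1. All 6 type IV genes were lower too, with ratios of 3.98 for Col4a6, 2.19 for Col4a2, 1.79 for Col4a1, 1.78 for Col4a4, 1.71 for Col4a5 and 1.38 for Col4a3. These medians pool the genotypes, and in WT libraries alone the medians of Col4a6 and Col11a1 were higher at 30 weeks. For Col4a6 the pooled means were 22.6 at 10 and 14.5 CPM per kb at 30 weeks, and its highest value (47.7) came from a 30-week library. The median log2 ratio of 30 over 10 weeks was -1.06 for the fibrillar and -0.83 for the type IV genes, against -0.02 for all genes. The ages were held in tables normalized separately, so these are descriptions with no test. With the WT libraries of the A537T tables, 31 of 35 medians were lower and the same 10 genes did not overlap. The median shares of markers of several cell types over the 9 libraries were lower at 30 weeks too. Fibroblast markers took 0.0852 to 0.161% of counts at 10 and 0.0551 to 0.113% at 30 weeks, endothelial markers 0.0146 to 0.0251% and 0.00596 to 0.0145%, adipocyte markers 0.0332 to 0.112% and 0.00327 to 0.0613%, and skeletal muscle markers 0.062 to 12.9% and 0.0113 to 0.0737%. Smooth muscle markers took 0.189 to 1.04% and 0.238 to 0.483%, with medians of 0.562 and 0.326%. Prostate epithelium markers went the other way, with medians of 1.56% at 10 and 2.0% at 30 weeks. The part of any of these cells in the lower collagen levels was not tested.

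The ratio of fibrillar to type IV collagen was formed within each library from the summed CPM per kb. It was 1.31, 1.73 and 1.98 in WT, 1.31, 1.23 and 1.11 in KO and 1.48, 1.54 and 1.46 in A537T libraries at 10 weeks. The ratio was 0.928, 0.667 and 0.757 in WT, 0.837, 1.01 and 0.885 in KO and 1.11, 1.33 and 1.23 in A537T libraries at 30 weeks. At 10 weeks all KO values lay at or under the lowest WT value and the A537T values lay inside the WT range, whereas at 30 weeks the A537T values lay above all WT and KO values. By the length of the longest coding transcript the ratio was higher, at 1.93 to 3.03 in WT, 1.66 to 1.95 in KO and 2.18 to 2.28 in A537T libraries at 10 weeks and 0.954 to 1.42, 1.28 to 1.56 and 1.73 to 2.07 at 30 weeks, so whether it lay above or under 1 rests on the length. In that form the KO and WT ranges overlapped at 10 weeks, and the A537T values at 30 weeks stayed above the others. The same groups looked different when only the main chains of the interstitial fibril (Col1a1, Col1a2 and Col3a1) were set over those of the common basement membrane network (Col4a1 and Col4a2), a choice made after seeing the data. That ratio was 1.88, 1.85 and 1.8 in WT, 1.73, 1.86 and 1.78 in KO and 1.95, 2.0 and 1.78 in A537T libraries at 10 weeks, and 0.947, 1.48 and 1.38 in WT, 1.5, 0.978 and 1.38 in KO and 1.34, 1.53 and 1.47 in A537T libraries at 30 weeks. The groups of an age overlapped in that form at both ages, and all 10-week values, from 1.73, exceeded all 30-week values, up to 1.53. The chains left out of it, Col4a3 to Col4a6, made up 23, 64.3 and 55.8% of the type IV level in WT libraries at 30 weeks and 31.8, 29.2 and 31.5% in A537T libraries. No p was computed for these ratios, which sum over chains that were chosen as members.

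**Figure D2:**
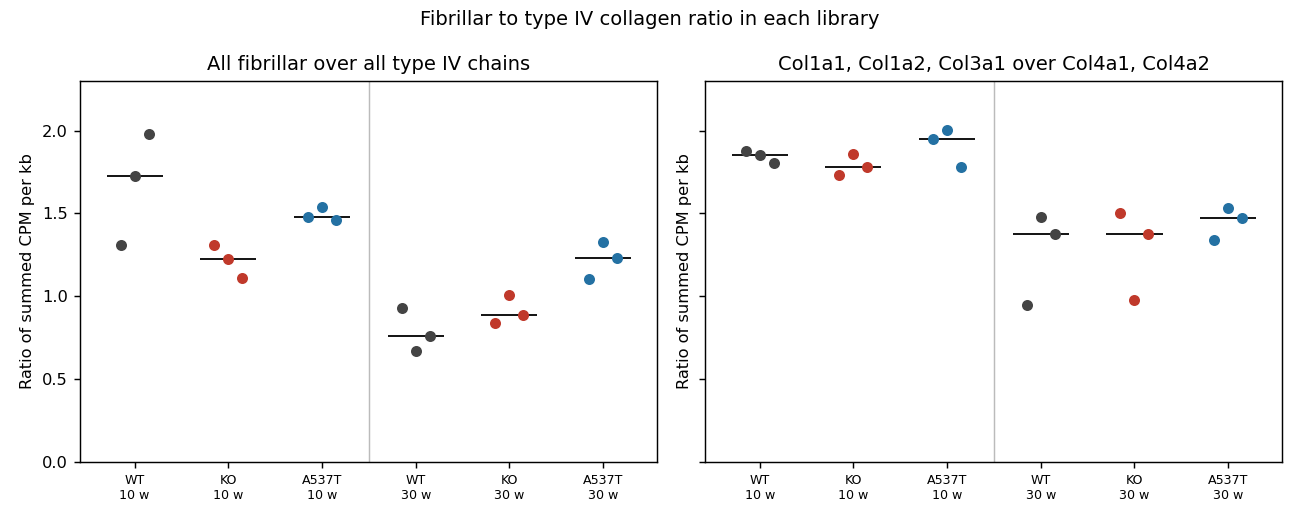
Ratio of summed fibrillar to summed type IV CPM per kb in each library (points) with group medians (lines), for all chains on the left and for the main chains on the right. With all chains the 30-week A537T libraries, at 1.11 to 1.33, lie above the WT libraries, at 0.667 to 0.928, whereas with the main chains the groups overlap at 30 weeks.

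The 6 type IV genes lie in 3 pairs of divergent neighbours, a layout in which 2 genes are read outwards from a shared stretch. Col4a1 (chromosome 8, 11198423 to 11312826, minus strand) and Col4a2 (chromosome 8, 11312805 to 11449287, plus strand) overlap by 22 bases at their starts in GENCODE M21 on GRCm38. Col4a4 (chromosome 1, 82448423 to 82586849, minus strand) and Col4a3 (chromosome 1, 82586921 to 82722059, plus strand) are 71 bases apart, and Col4a6 (chromosome X, 141165403 to 141474076, minus strand) and Col4a5 (chromosome X, 141475385 to 141689234, plus strand) are 1308 bases apart. The sequence between Col4a4 and Col4a3 (chr1:82586850-82586920, plus strand) and the 150 bases before each of Col4a6 (chrX:141474077-141474226, minus strand) and Col4a5 (chrX:141475235-141475384, plus strand), from RefSeq on GRCm38.p6, are given because the pairs differed in how steadily their members were expressed. Capitals mark matches to the GC box (GGGCGG), the CCAAT box (CCAAT) or TATAAA on either strand.
Between Col4a4 and Col4a3: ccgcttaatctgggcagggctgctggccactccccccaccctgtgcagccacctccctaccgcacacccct
Before Col4a6: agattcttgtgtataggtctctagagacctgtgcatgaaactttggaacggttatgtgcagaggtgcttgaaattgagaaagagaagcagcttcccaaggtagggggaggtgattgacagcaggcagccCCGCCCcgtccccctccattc
Before Col4a5: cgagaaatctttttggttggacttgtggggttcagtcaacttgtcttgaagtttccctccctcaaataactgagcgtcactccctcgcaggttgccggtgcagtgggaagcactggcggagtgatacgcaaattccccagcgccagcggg

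One GC box was found before Col4a6 and no match in either of the other stretches. Over the 300-base promoter windows of RefSeq (250 bases before to 50 after a start), a GC box was present for 22 of the 35 collagen genes with a window and in 35.7% of all windows, a CCAAT box for 12 and in 37.4%, and TATAAA for 5 (Col3a1, Col10a1, Col11a2, Col13a1 and Col17a1) and in 13.6%. Both Col4a1 and Col4a2 windows, which overlap, held a GC box and a CCAAT box. The Col4a5 window held both boxes too, outside the stretch printed above, and the Col4a6 window held a GC box alone. Expression within a pair was compared as a ratio per kb. Col4a2 over Col4a1 stayed between 0.426 and 0.704 in all 18 libraries, and Col4a4 over Col4a3 between 1.12 and 2.59. Col4a6 over Col4a5 ran from 0.240 to 8.24. In detail it was 3.08, 0.74 and 0.24 in WT, 1.82, 2.51 and 2.06 in KO and 2.78, 3.56 and 3.87 in A537T libraries at 10 weeks, and 0.448, 8.24 and 6.17 in WT, 2.22, 0.339 and 1.81 in KO and 0.801, 0.684 and 0.841 in A537T libraries at 30 weeks. The pair with the longest interval between its starts had the ratio that varied most. Whether the interval or these sequences bear on that ratio was not tested.

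**Figure D3:**
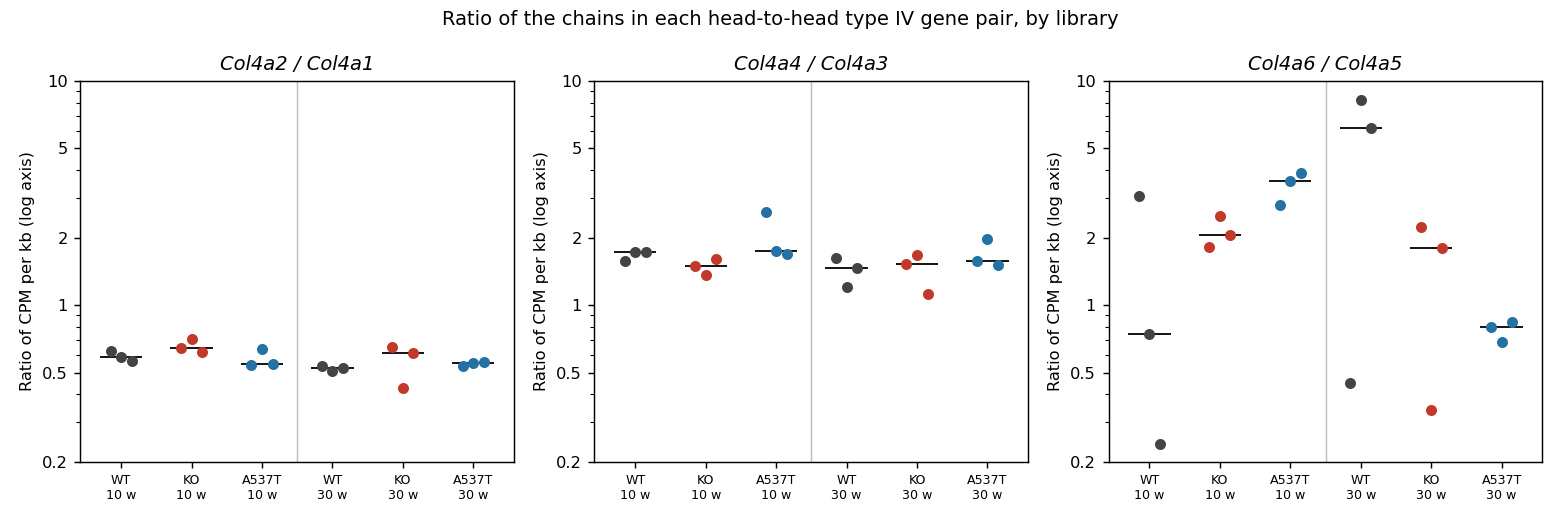
Ratio of CPM per kb between the members of each head-to-head type IV gene pair, on a log axis common to the 3 panels, with 1 point per library and group medians as lines. Col4a2 over Col4a1 stays within 0.426 to 0.704, while Col4a6 over Col4a5 spans 0.240 to 8.24.

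Each mutant group was then compared with WT within its own table, on log2(normalized count + 1), so that the change of low genes is understated. At 10 weeks all 3 KO libraries lay below all 3 WT libraries for the fibrillar genes Col5a2 and Col5a3, the type VI genes Col6a1, Col6a2 and Col6a3, and Col8a2, Col9a2 and Col14a1, and above them for Col4a5, Col7a1, Col17a1 and Col18a1. None passed the adjusted threshold. KO libraries at 10 weeks were tested for 35 collagen genes. None was called at an adjusted p under 0.05 with limma, where 0.0% of all 15089 genes were called, and 9 had an unadjusted p under 0.05, beside 19.4% of all genes (25.7% of the collagen genes). Of these, 3 were higher and 6 lower in KO, beside 7.97 and 11.5% of all genes. The 3 KO and 3 WT libraries did not overlap for 12 collagen genes, beside 26% of all genes. Those 12 comprised 8 with lower values in KO and 4 with higher values, beside 14.3 and 11.7%. On recovered reads, DESeq2 called 2 collagen genes, Col6a3 and Col9a2, beside 4.74% of all genes, and edgeR called none. The median log2 fold change was -0.052 over 9 fibrillar, 0.40 over 6 type IV and -0.0061 over all genes tested, and all 6 type IV chains had a positive value.

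Among the fibrillar genes, Col5a2 and Col5a3 separated the KO and WT groups. Col5a2 had 679.9, 585 and 599 normalized counts in WT and 498, 473 and 493 in KO libraries (log2 fold change -0.34 ± 0.11 (SE), limma adjusted p = 0.20). Col5a3 had 333, 229.9 and 362 normalized counts in WT and 203, 228 and 185 in KO libraries (log2 fold change -0.56 ± 0.20 (SE), limma adjusted p = 0.21). Every KO value was below every WT value for both, although the margin was under 2 normalized counts for Col5a3. The log2 fold changes of the main fibrillar chains were 0.43 ± 0.26 for Col1a1, 0.11 ± 0.15 for Col1a2 and -0.052 ± 0.14 for Col3a1. Of the type IV chains, Col4a5 had 568, 376 and 258 normalized counts in WT and 609, 582 and 824 in KO libraries (log2 fold change 0.80 ± 0.30 (SE), limma adjusted p = 0.22). All 3 KO libraries were higher, and the value with the seminal vesicle score as a covariate, an alternative added after seeing the data, was 0.40 ± 0.30. Of the 9 seminal vesicle markers, 7 were higher in every KO than in every WT library, so that genotype and this score cannot be told apart. Col4a6 had 2075, 329.8 and 73.4 normalized counts in WT and 1319, 1734 and 2017 in KO libraries (log2 fold change 2.17 ± 1.07 (SE), limma adjusted p = 0.31). WT library 10AF lay above all KO libraries, so the groups overlapped, and without it the log2 fold change was 3.41 with an adjusted p of 0.0235. In that fit, without WT library 10AF, 9 collagen genes were called (Col4a3, Col4a5, Col4a6, Col6a3, Col9a2, Col15a1, Col17a1, Col23a1 and Col28a1), beside 19.2% of all genes.

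Col6a3, the long chain of type VI collagen, had 3952, 9187 and 12459 normalized counts in WT and 2827, 3265 and 1211 in KO libraries (log2 fold change -1.78 ± 0.52 (SE), limma adjusted p = 0.18). Its groups did not overlap, and DESeq2 on recovered reads gave an adjusted p of 0.00598. Over the 9 libraries at 10 weeks its level followed the skeletal muscle share (Spearman 0.82) and the prostate epithelium share (0.90), a description over libraries that share groups. With the skeletal muscle score as a covariate its log2 fold change was -0.61 ± 0.73. Of the 28 skeletal muscle markers, however, 27 were lower in every KO than in every WT library. Genotype and muscle share therefore cannot be told apart in this fit. The log2 fold change of its partner chains was -0.13 ± 0.11 for Col6a1 and -0.15 ± 0.11 for Col6a2, each with lower values in all KO than in all WT libraries. Col9a2, a chain of the cartilage collagen IX, had 10.8, 34.1 and 30.6 normalized counts in WT and 4.3, 3.51 and 0 in KO libraries (log2 fold change -3.03 ± 0.81 (SE), limma adjusted p = 0.18), at counts near the filter. Its level followed the skeletal muscle share too (Spearman 0.92 over 9 libraries).

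The other 4 genes under an unadjusted p of 0.05 in the KO comparison at 10 weeks came from other classes. Col7a1, the anchoring fibril chain, had 399, 496 and 438 normalized counts in WT and 555, 738 and 652 in KO libraries (log2 fold change 0.54 ± 0.15 (SE), limma adjusted p = 0.18). Col17a1, a hemidesmosome collagen of basal epithelial cells, had 87.1, 54.1 and 49 normalized counts in WT and 94.5, 137 and 136 in KO libraries (log2 fold change 0.97 ± 0.28 (SE), limma adjusted p = 0.18). Both were higher in all 3 KO than in all 3 WT libraries. Col14a1, a FACIT collagen of fibril surfaces, had 310.1, 274 and 384 normalized counts in WT and 229, 215 and 211 in KO libraries (log2 fold change -0.54 ± 0.16 (SE), limma adjusted p = 0.18). Col8a2, of the short-chain network type VIII, had 69.5, 103 and 90.8 normalized counts in WT and 37.8, 65.6 and 43.4 in KO libraries (log2 fold change -0.85 ± 0.28 (SE), limma adjusted p = 0.19). These 2 were lower in all KO libraries.

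In A537T mice at 10 weeks the main chains Col1a1, Col3a1 and Col4a1 were higher by normalized count in all 3 libraries than in all 3 WT libraries, and Col7a1 was lower. None passed the adjusted threshold. In CPM the groups of Col1a1 and Col3a1 overlapped. Col4a1 and Col7a1 were apart in CPM with the WT libraries of the A537T table but not with those of the KO table. With the WT libraries of either table, 0 of 37 collagen genes stayed apart in CPM both times, beside 1645 of 15131 genes. A537T libraries at 10 weeks were tested for 37 collagen genes. Again none was called with limma, where 0.0% of all 15131 genes were called, nor with DESeq2, which called 0.595% of all genes, nor with edgeR. An unadjusted p under 0.05 was found for 5 collagen genes, beside 6.43% of all genes, and groups did not overlap for 4, beside 11.9%. By direction, 4 were higher and 1 lower in A537T at that p, beside 2.76 and 3.67% of all genes, and 3 were apart upwards and 1 downwards, beside 5.58 and 6.34%. The median log2 fold change was 0.46 over 10 fibrillar, 0.47 over 6 type IV and 0.011 over all genes, with 8 fibrillar and 6 type IV values above 0. Col1a1 had 1387, 1004 and 643 normalized counts in WT and 1419, 1714 and 2327 in A537T libraries (log2 fold change 0.89 ± 0.31 (SE), limma adjusted p = 0.75). Col1a2 had 2905, 2137 and 2117 normalized counts in WT and 2809, 3267 and 4751 in A537T libraries (log2 fold change 0.58 ± 0.24 (SE), limma adjusted p = 0.75). Type I collagen transcripts were thus highest in library 18AF, and the groups of Col1a1 were separated by a narrow margin while those of Col1a2 overlapped. Col4a1 had 2183, 1754 and 1815 normalized counts in WT and 2396, 2449.9 and 4250.3 in A537T libraries (log2 fold change 0.61 ± 0.24 (SE), limma adjusted p = 0.75). Col12a1, a FACIT collagen, had 1126, 765 and 749 normalized counts in WT and 1111, 1754 and 2991 in A537T libraries (log2 fold change 1.06 ± 0.36 (SE), limma adjusted p = 0.75). Library 18AF also had the highest smooth muscle share of the series, and without it the log2 fold change was 0.36 for Col1a2, 0.34 for Col4a1 and 0.69 for Col12a1. With the skeletal muscle score as a covariate the log2 fold change of Col1a1 was 0.13 ± 0.18, that of Col4a1 was 0.13 ± 0.23, and the median of the fibrillar genes moved from 0.46 to -0.048. Col7a1 went the other way, with 552, 674 and 597 normalized counts in WT and 490.5, 278 and 165 in A537T libraries (log2 fold change -1.10 ± 0.36 (SE), limma adjusted p = 0.75), and no A537T library reached the WT range of that table.

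**Figure D4:**
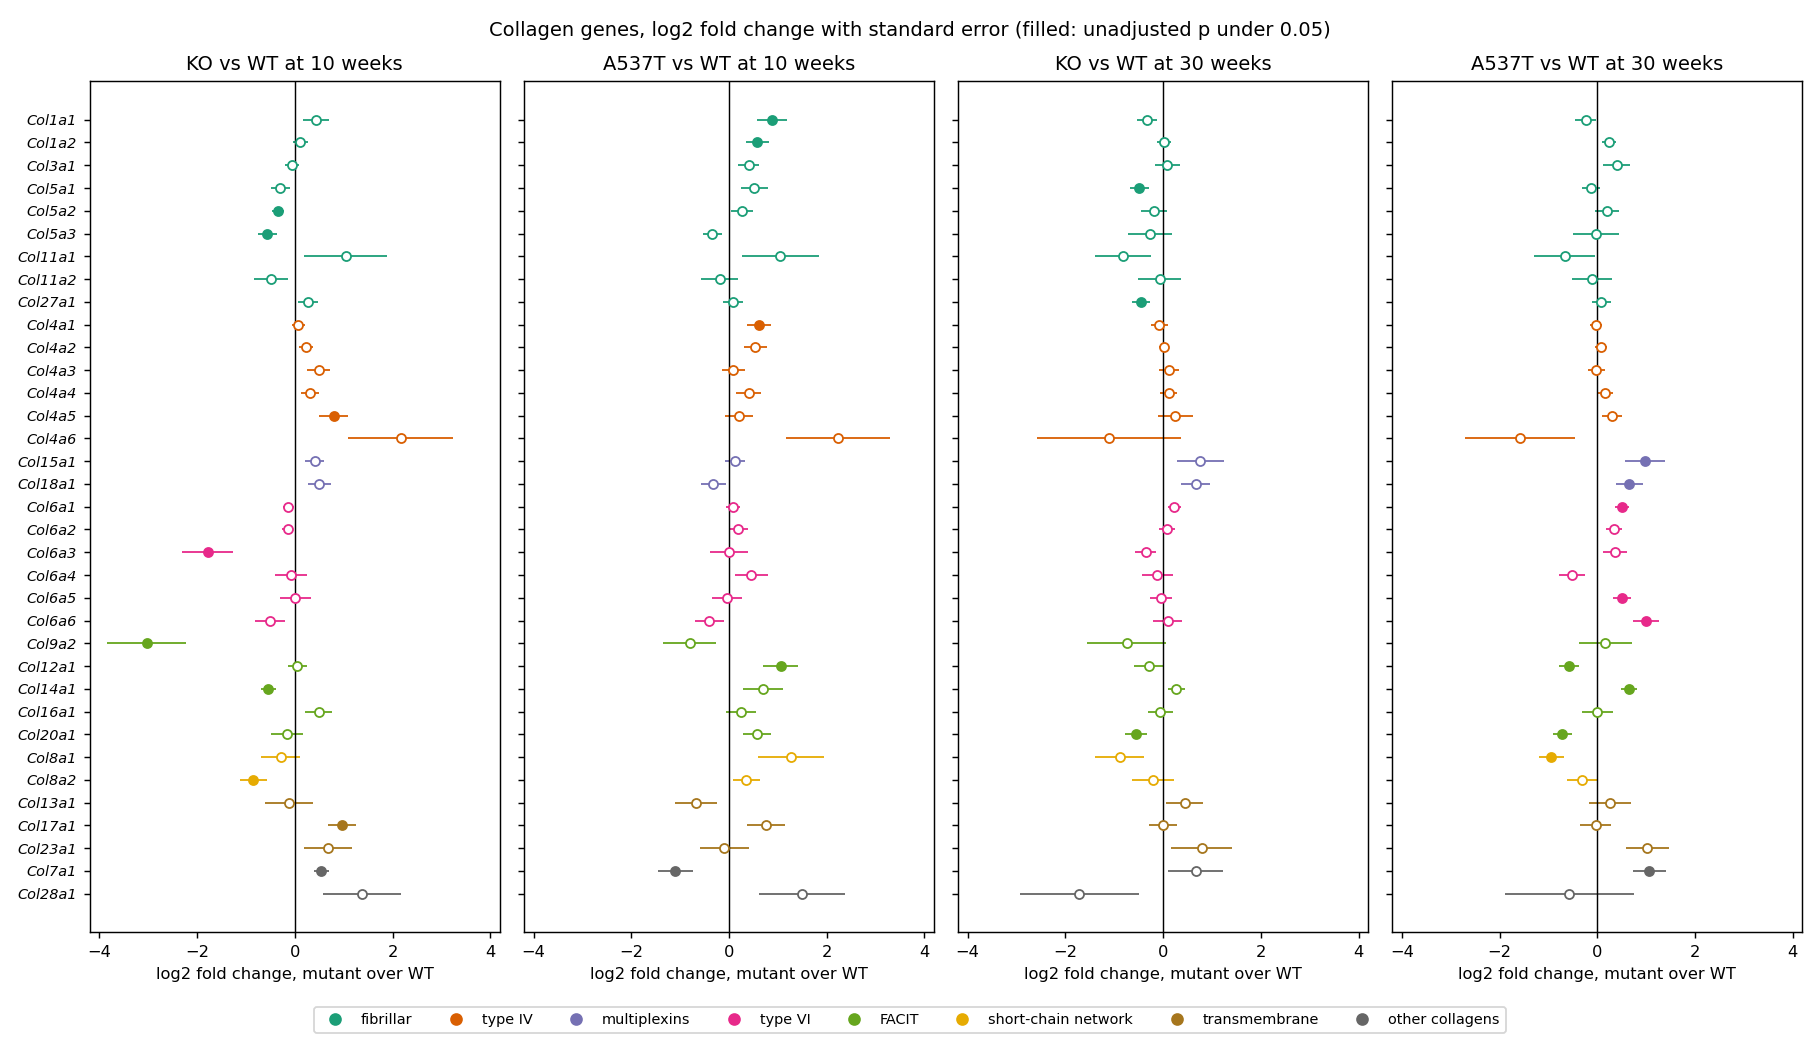
Log2 fold change of mutant over WT (points) with its standard error (bars) for the 35 collagen genes tested in all 4 comparisons, coloured by class and filled where the unadjusted limma p is under 0.05. No gene has an adjusted p under 0.05, and Col4a6 and Col28a1 have long error bars in every panel.

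In KO mice at 30 weeks Col14a1, a FACIT collagen, was higher and Col20a1 and Col27a1 were lower in all 3 libraries than in all 3 WT libraries, none past the adjusted threshold. KO libraries at 30 weeks gave the fewest collagen genes under an unadjusted p of 0.05. Of 36 collagen genes tested, 0 were called with limma (beside 0.0% of all 14729 genes), 0 with DESeq2 (beside 1.93%) and none with edgeR. An unadjusted p under 0.05 was found for 3, beside 11% of all genes, all 3 lower in KO (beside 5.41% lower and 5.56% higher), and groups did not overlap for 3 (Col14a1 higher, Col20a1 and Col27a1 lower in KO), beside 16.3%, or 7.92% higher and 8.41% lower. The median log2 fold change was -0.23 over 10 fibrillar, 0.062 over 6 type IV and -0.0067 over all genes. Col5a1 had 289, 376 and 276 normalized counts in WT and 188, 279.8 and 206 in KO libraries (log2 fold change -0.49 ± 0.19 (SE), limma adjusted p = 0.44), with KO library 5AF inside the WT range. Col27a1, a fibrillar chain with a shorter helix, had 59.5, 70.3 and 67.3 normalized counts in WT and 43, 49.9 and 50.0 in KO libraries (log2 fold change -0.45 ± 0.18 (SE), limma adjusted p = 0.44). Col20a1, of the FACIT class, had 80.4, 82.9 and 84.2 normalized counts in WT and 59, 71.2 and 41.9 in KO libraries (log2 fold change -0.55 ± 0.22 (SE), limma adjusted p = 0.44). KO values of the last pair lay below all WT values. Col1a1 had a log2 fold change of -0.33 ± 0.21, Col3a1 of 0.087 ± 0.26, Col4a1 of -0.077 ± 0.17 and Col4a2 of 0.0088 ± 0.091. KO library 5AF was unlike the other KO libraries in lacking seminal vesicle transcripts, and without it 4 collagen genes were called (Col6a3, Col7a1, Col18a1 and Col23a1), beside 6.41% of all genes.

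In A537T mice at 30 weeks Col6a1, Col6a5, Col6a6, Col7a1 and Col14a1 were higher, and Col8a1, Col12a1 and Col20a1 lower, in all 3 libraries than in all 3 WT libraries, while the fibrillar and type IV groups overlapped by normalized count. A537T libraries at 30 weeks had the largest number of collagen genes under an unadjusted p of 0.05, 10 of 35, beside 13.6% of all 14789 genes. In A537T 7 of them were higher and 3 lower, beside 7.35 and 6.28%. Limma called 0 at an adjusted p under 0.05 (beside 0.0% of all genes), edgeR called none and DESeq2 called 1, Col7a1, beside 3.19%. Groups did not overlap for 8, of which 5 were higher and 3 lower in A537T, beside 18.6% of all genes in either direction, 9.18% higher and 9.4% lower. The median fibrillar and type IV log2 fold changes were -0.026 and 0.025, with -0.24 ± 0.21 for Col1a1, 0.40 ± 0.28 for Col3a1, -0.033 ± 0.13 for Col4a1 and 0.069 ± 0.12 for Col4a2, beside -0.0052 for all genes. The groups of Col4a6 overlapped, at 139.6, 3657 and 2363 normalized counts in WT and 411, 236 and 460.0 in A537T libraries, with WT library 1AF below all 3 A537T libraries.

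Type VI collagen, the beaded microfibril next to basement membranes, had a median log2 fold change of 0.43 over 6 genes in A537T mice at 30 weeks, against 0.023 in KO mice of that age, which share the WT libraries. Col6a1 had 456, 556 and 577 normalized counts in WT and 791, 645 and 830.3 in A537T libraries (log2 fold change 0.51 ± 0.14 (SE), limma adjusted p = 0.27). Col6a5 had 279, 443 and 443 normalized counts in WT and 564, 522 and 535 in A537T libraries (log2 fold change 0.51 ± 0.19 (SE), limma adjusted p = 0.33). Col6a6 had 27.3, 53.9 and 42.6 normalized counts in WT and 77.3, 78.1 and 86.5 in A537T libraries (log2 fold change 1.00 ± 0.27 (SE), limma adjusted p = 0.27). All A537T libraries exceeded all WT libraries for the 3 genes. Of the other type VI genes, the log2 fold change was 0.34 ± 0.17 for Col6a2, 0.35 ± 0.24 for Col6a3 and -0.52 ± 0.27 for Col6a4, the last in the opposite direction. In the same comparison, 12 of 12 fibroblast markers had a positive log2 fold change, with a median of 0.61, and their summed share was 0.0551, 0.0752 and 0.0722% in WT and 0.102, 0.113 and 0.0947% in A537T libraries. Endothelial markers were higher for 12 of 12 (median 0.42), with summed shares of 0.00596, 0.0127 and 0.0107% in WT and 0.0145, 0.00921 and 0.0141% in A537T libraries, and adipocyte markers for 10 of 10 (median 1.33), with 0.00327, 0.0161 and 0.0136% and 0.0489, 0.00451 and 0.0613%. No fibroblast or endothelial marker was at 0, whereas 4 of 10 adipocyte markers were at 0 in at least 1 WT and 6 in at least 1 A537T library, and the part of these cells in the type VI values was not tested.

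Of the multiplexins, Col15a1 had 109.9, 294 and 201 normalized counts in WT and 379, 242 and 536 in A537T libraries (log2 fold change 0.97 ± 0.41 (SE), limma adjusted p = 0.36) and Col18a1, the precursor of endostatin, had 288, 348 and 347 normalized counts in WT and 583, 334 and 705 in A537T libraries (log2 fold change 0.66 ± 0.27 (SE), limma adjusted p = 0.36). Library 8AF was inside the WT range for both. Col7a1 had 455, 398 and 289 normalized counts in WT and 801, 482 and 1245 in A537T libraries (log2 fold change 1.06 ± 0.34 (SE), limma adjusted p = 0.30). The 3 genes were high where seminal vesicle transcripts were present (KO libraries 4AF and 6AF, A537T libraries 7AF and 9AF) and lower in the 5 libraries without them. For Col7a1 the former 4 libraries lay between 8.87 and 13 CPM per kb and the latter 5 between 2.55 and 5.55. The type IV gene Col4a5 and the transmembrane collagen Col23a1 split the same way, with the former 4 libraries all above the latter 5. With the seminal vesicle score as a covariate the log2 fold change of A537T over WT was 0.40 ± 0.29 for Col7a1, 0.50 ± 0.50 for Col15a1 and 0.095 ± 0.19 for Col18a1. Per the protocol in the labels, the seminal vesicles were removed before the lobes were dissected. Marker transcripts of that gland were nonetheless present in these 4 libraries, and how the transcripts of these collagen genes divide between the glands was not tested.

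FACIT and short-chain collagens differed in both directions in A537T mice at 30 weeks, none with an adjusted p under 0.05. Col14a1 had 105, 149.1 and 138 normalized counts in WT and 196, 223 and 194 in A537T libraries (log2 fold change 0.65 ± 0.17 (SE), limma adjusted p = 0.27). Col12a1 had 1134, 1034 and 1022 normalized counts in WT and 594, 1008 and 605 in A537T libraries (log2 fold change -0.58 ± 0.21 (SE), limma adjusted p = 0.32). Col20a1 had 83.4, 86 and 87.1 normalized counts in WT and 60.3, 54.9 and 41.6 in A537T libraries (log2 fold change -0.72 ± 0.19 (SE), limma adjusted p = 0.27). Col8a1, the partner of Col8a2 in type VIII collagen, had 33.7, 52.8 and 49.5 normalized counts in WT and 24.1, 22.2 and 21.9 in A537T libraries (log2 fold change -0.94 ± 0.26 (SE), limma adjusted p = 0.27). Each of the 4 separated A537T from WT libraries, Col14a1 upwards and the others downwards. Without library 8AF, 5 collagen genes were called in this comparison (Col6a1, Col7a1, Col12a1, Col18a1 and Col23a1), beside 8.27% of all genes.

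Whether groups overlapped depended in part on the scale. In CPM, where no size factor enters, 8 of the 12 collagen genes apart by normalized count stayed apart in KO mice at 10 weeks (not Col5a2, Col5a3, Col6a1 and Col6a2), 2 of 4 in A537T mice at 10 weeks (not Col1a1 and Col3a1), 2 of 3 in KO mice at 30 weeks (not Col14a1) and 7 of 8 in A537T mice at 30 weeks (not Col12a1). Other genes were apart in CPM alone, namely Col4a3 and Col16a1 in KO mice at 10 weeks, Col6a1 in KO mice at 30 weeks, and Col1a2, Col6a2 and Col18a1 in A537T mice at 30 weeks. Groups were apart in CPM for 10 of 35 collagen genes in KO and 2 of 37 in A537T mice at 10 weeks, beside 4165 of 15089 and 1937 of 15131 genes. At 30 weeks they were apart for 3 of 36 in KO and 10 of 35 in A537T mice, beside 2082 of 14729 and 2548 of 14789 genes.

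The effect of genotype was also set between the ages. Groups were apart in opposite directions at 10 and 30 weeks for 1 collagen gene in KO mice (Col14a1, -0.54 at 10 and 0.27 at 30 weeks), beside 1.4% of all genes, and for 1 in A537T mice (Col7a1, -1.10 and 1.06), beside 1.62% of all genes. In CPM, however, the KO and WT libraries overlapped for Col14a1 at 30 weeks. For Col7a1 at 10 weeks the separation held in CPM within the A537T table (log2 ratio of mean CPM -0.86) and was lost with the WT libraries of the KO table (-0.48). Likewise, the higher Col7a1 values of KO mice at 10 weeks were apart from WT in CPM within their table (0.75) but not with the WT libraries of the A537T table (0.36). A permutation test of such genes adds nothing to the separation that picked them. With 400 arrangements its smallest possible p was 0.005, at which the adjusted p was 0.357 in KO and 0.308 in A537T mice. No gene could thus pass the threshold of 0.05, and the permutation test cannot decide whether the effect differed between ages.

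The most abundant chain per kb of each further class was followed over all libraries. Col6a3 was at 41.2, 90.1 and 101 CPM per kb in WT, 31.8, 33.5 and 13.5 in KO and 66.9, 60.0 and 71.6 in A537T libraries at 10 weeks, and 19.8, 20.9 and 20.0, 13.4, 24.8 and 11.7, and 22.7, 41.8 and 19.2 in the same genotypes at 30 weeks. Col15a1 was at 12.4, 8.87 and 6.02 CPM per kb in WT, 14, 11.2 and 15.3 in KO and 8.33, 10.3 and 12.1 in A537T libraries at 10 weeks, and 2.0, 5.06 and 3.66, 7.7, 3.23 and 7.2, and 6.8, 4.51 and 9.04 in the same genotypes at 30 weeks, and Col18a1 at 11.1, 11.1 and 5.05 CPM per kb in WT, 14.1, 12.1 and 16.1 in KO and 5.73, 6.66 and 9.04 in A537T libraries at 10 weeks, and 4.64, 5.33 and 5.63, 11.3, 5.6 and 8.71, and 9.46, 5.62 and 10.8 in the same genotypes at 30 weeks. At 30 weeks the KO and A537T libraries fell into a higher pair and 1 lower library for both multiplexins, the lower one being 5AF or 8AF. Col12a1 was at 8.64, 5.63 and 4.52 CPM per kb in WT, 8.48, 7.11 and 6.25 in KO and 8.16, 13.3 and 25 in A537T libraries at 10 weeks, and 8.22, 7.12 and 7.45, 3.8, 11.4 and 5.44, and 4.44, 7.84 and 4.26 in the same genotypes at 30 weeks. Col8a2 was at 1.93, 2.7 and 1.95 CPM per kb in WT, 1.13, 1.79 and 1.29 in KO and 2.31, 2.23 and 4.27 in A537T libraries at 10 weeks, and 2.7, 1.67 and 2.4, 1.12, 4.17 and 1.48, and 1.63, 2.95 and 1.177 in the same genotypes at 30 weeks. Col23a1, a transmembrane collagen, was at 6.66, 2.96 and 1.185 CPM per kb in WT, 6.34, 4.11 and 5.81 in KO and 3.32, 3.14 and 2.26 in A537T libraries at 10 weeks, and 1.42, 2.83 and 2.74, 6.76, 1.51 and 5.55, and 5.45, 2.63 and 6.98 in the same genotypes at 30 weeks. Col7a1 was at 4.84, 5.66 and 4.11 CPM per kb in WT, 7.26, 8.8 and 8.43 in KO and 5.34, 3.12 and 2.05 in A537T libraries at 10 weeks, and 4.85, 4.03 and 3.1, 9.39, 2.55 and 9.97, and 8.87, 5.55 and 13 in the same genotypes at 30 weeks, with WT values from the KO tables. In the A537T table the same WT libraries at 10 weeks stood at 6.32, 7.4 and 5.36 CPM per kb, each 1.31 times higher, and A537T library 16AF lay just under the lowest of them. Its median was not lower at 30 weeks with WT from the KO tables and was lower with WT from the A537T tables.

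**Figure D5:**
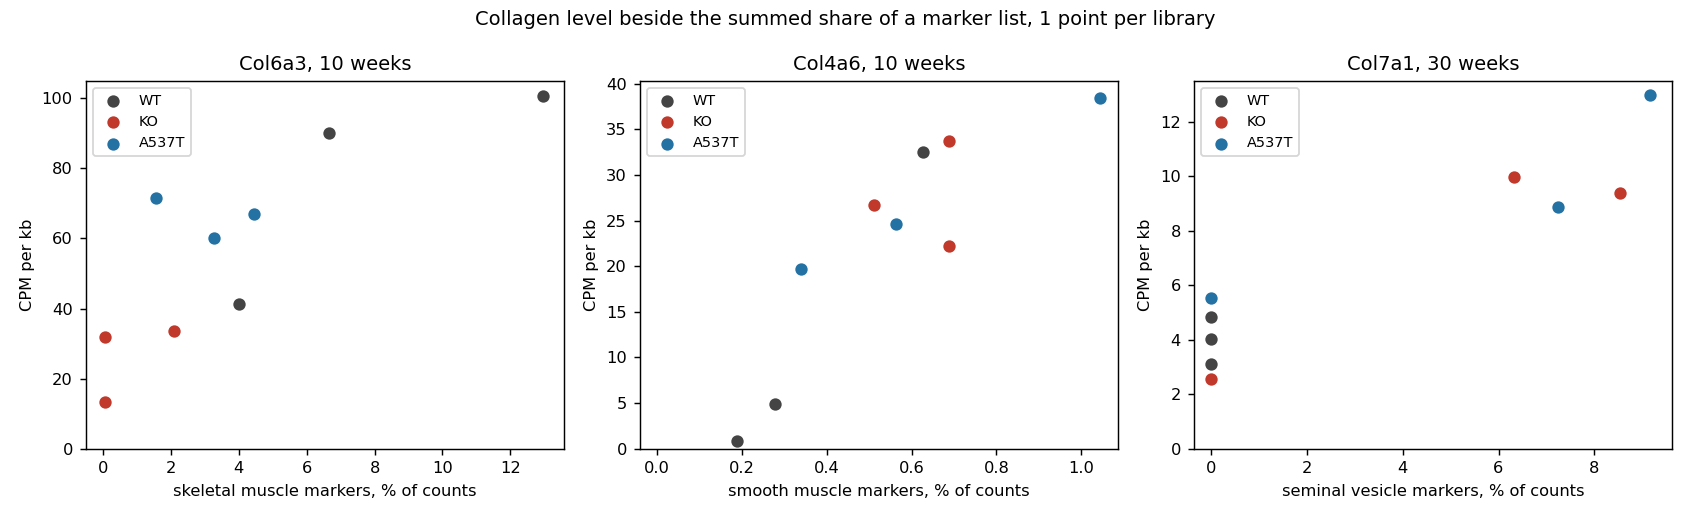
Level of Col6a3 and Col4a6 at 10 weeks and of Col7a1 at 30 weeks in CPM per kb, against the summed share of a marker list in the same library, 1 point per library, 9 per panel, coloured by genotype. Col6a3 is lowest in the KO libraries, Col4a6 is lowest in the WT libraries with the smallest smooth muscle shares, and Col7a1 is highest in the 4 libraries with seminal vesicle transcripts.

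Other genes of the collagen pathway were read from 6 lists, and none of their genes was called at an adjusted p under 0.05 with limma. DESeq2 on recovered reads called Frem1 in KO mice at 10 weeks (adjusted p = 0.0305), in KO mice at 30 weeks (adjusted p = 0.0153) and in A537T mice at 30 weeks (adjusted p = 0.0159), Lama1 (adjusted p = 0.0083) and Mmp9 (adjusted p = 0.00128) in A537T mice at 30 weeks, Fmod in KO mice at 30 weeks (adjusted p = 0.0478) and Mrc2, which was lower, in KO mice at 10 weeks (adjusted p = 0.0352). Beside these, DESeq2 called 4.74% of all genes in KO and 0.595% in A537T mice at 10 weeks, and 1.93 and 3.19% at 30 weeks. The numbers under an unadjusted p of 0.05 in the order KO and A537T at 10 weeks, KO and A537T at 30 weeks were 3, 2, 2, 3 of 21 genes of collagen synthesis and secretion, 2, 2, 0, 1 of 13 of procollagen processing and cross-linking, 3, 3, 1, 2 of 15 fibril-associated genes, and 6, 2, 3, 6 of 19 basement membrane partners of type IV collagen. Of the basement membrane genes, 5 were higher and 1 lower in KO mice at 10 weeks, beside 7.97% higher and 11.5% lower of all genes, and all 6 were higher in A537T mice at 30 weeks, where 7.35% of all genes were. Among collagen receptors (9 tested, 8 in KO at 30 weeks) the counts were 2, 0, 1, 1, and among collagen-degrading proteases and their inhibitors (11 tested, 10 in A537T at 30 weeks) 1, 0, 2, 4. The shares of all genes at that p were 19.4, 6.43, 11 and 13.6% in the same order.

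Serpinh1, the endoplasmic reticulum chaperone HSP47 that binds procollagen, was higher in all 3 mutant than in all 3 WT libraries in each of the 4 comparisons, in which the WT libraries of an age are shared. It was named for its small p. Groups were apart upwards for 11.7% of all genes in KO and 5.58% in A537T mice at 10 weeks, and for 7.92 and 9.18% at 30 weeks. Of the 21 genes of its list, 1, 2, 1 and 1 were apart upwards in that order. The share of all genes apart in all 4 is not given here. Its log2 fold change was 0.55 ± 0.16 (limma adjusted p = 0.18) in KO and 0.93 ± 0.24 (limma adjusted p = 0.75) in A537T mice at 10 weeks. At 30 weeks it was 0.34 ± 0.13 (limma adjusted p = 0.43) in KO and 0.43 ± 0.13 (limma adjusted p = 0.29) in A537T mice. P4hb, a subunit of prolyl 4-hydroxylase and the list's highest gene by normalized count, had values from -0.26 ± 0.16 to 0.18 ± 0.21. P4ha1, the catalytic subunit, was at -0.34 ± 0.14 in KO and 0.57 ± 0.13 in A537T mice at 10 weeks, with groups apart in both. Groups were apart downwards for 14.3% of all genes in the former and upwards for 5.58% in the latter. Tram2, of the translocon, was at -0.60 ± 0.19 in KO mice at 30 weeks (limma adjusted p = 0.41). Of the enzymes that mature collagen outside the cell, Lox, which starts cross-linking, was at 0.94 ± 0.27 in A537T mice at 10 weeks (limma adjusted p = 0.75), and Pcolce, an enhancer of procollagen cleavage, at -0.70 ± 0.21 and Loxl2 at -0.62 ± 0.21 in KO mice at 10 weeks. Pxdn, the peroxidase that links type IV networks and the highest of its list, ranged from 0.42 ± 0.32 to 0.56 ± 0.41.

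Decorin (Dcn), the highest fibril-associated gene, was at 0.40 ± 0.14 in A537T mice at 30 weeks (limma adjusted p = 0.32). Fmod was at 0.59 ± 0.13 in KO mice at 30 weeks, Thbs1 at 0.82 ± 0.18 at 10 and -0.64 ± 0.19 at 30 weeks in A537T mice, and Tnxb at -0.54 ± 0.16 in KO mice at 10 weeks, with groups apart each time. Groups were apart in either direction for 26% of all genes in KO and 11.9% in A537T mice at 10 weeks, and for 16.3 and 18.6% at 30 weeks. Among the basement membrane partners, perlecan (Hspg2) was the highest and stayed between -0.059 ± 0.13 and 0.24 ± 0.19. Frem1 was at 1.44 ± 0.41 in KO mice at 10 weeks, and at 1.44 ± 0.35 in KO and 1.44 ± 0.40 in A537T mice at 30 weeks, apart from WT in the 3 comparisons. Groups were apart upwards for 11.7, 7.92 and 9.18% of all genes in these comparisons. Lama1 was at 1.20 ± 0.23 (limma adjusted p = 0.19) and Nid1, which joins laminin to type IV collagen, at 0.69 ± 0.20 (limma adjusted p = 0.28) in A537T mice at 30 weeks. Of the receptors, Itgb1 was the highest, from 0.15 ± 0.13 to 0.32 ± 0.19. Mrc2, an endocytic collagen receptor, was at -0.96 ± 0.25 in KO mice at 10 weeks, Ddr2 at 0.55 ± 0.16 in A537T mice at 30 weeks and Lair1 at 1.28 ± 0.44 in KO mice at 10 weeks. Of the proteases, Mmp9 was at 2.05 ± 0.41 (limma adjusted p = 0.21) and Mmp14 at 0.88 ± 0.24 in A537T mice, and Mmp2 at 0.82 ± 0.22 in KO and 0.61 ± 0.21 in A537T mice at 30 weeks. Timp4, an inhibitor and the list's highest gene, was at -1.33 ± 0.66 in KO mice at 10 weeks, with overlapping groups.

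The filter was a mean normalized count of 10 in the table. Col2a1, Col9a1, Col9a3, Col10a1, Col19a1, Col22a1 and Col26a1 were below it in all 4 tables, and Col24a1 and Col25a1 were tested in some. Col25a1, a transmembrane collagen, was tested in A537T mice at 10 weeks alone, where library 18AF was the highest. Col24a1, a fibrillar chain, reached 1.24 CPM per kb in A537T library 17AF, against a median of 0.16 at 10 weeks.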

How the data were processed

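Total RNA from the prostate lobes of 3 mice per genotype and age was sequenced as TruSeq libraries. Per the study's methods, the authors trimmed reads with Trim Galore 0.4.1 and cutadapt 1.18, aligned them with STAR 2.7.3a, quantified genes with Salmon on a NUMT-masked GRCm38.p6 genome and GENCODE annotation, and analysed them with DESeq2 1.26. The deposited signal values are normalized counts per gene. The values themselves, not the methods text, show that whole counts were divided by 1 factor per library. The counts of some genes differ between the tables for the same WT library, and why is not given in the sources used here. The values come in 4 tables (1 per mutant line and age), and the WT libraries of an age are in both of its tables. Further tables hold the authors' own fold changes and their significance values and were not used.

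Columns were assigned to groups, not to numbered replicates. Each table was tested on its own with limma 3.58.1 in R 4.3.3 (log2(normalized count + 1), mean of at least 10, Benjamini-Hochberg adjustment over all genes, threshold 0.05, two-sided). A fold change on this scale understates that of low genes. In every column nearly all values were whole multiples of 1 read (at least 99.98% within 0.01). Reads were therefore recovered and tested with DESeq2 1.42.0 and edgeR 4.0.16 as alternatives. In 4 columns the size factor was near 1. DESeq2 and edgeR thus served only as alternatives. Intervals and tests cover the spread between 3 mice. Levels per kb used the length of all exons, with the longest coding transcript as an alternative. Gene lengths, positions and coding sequences came from GENCODE M21, and promoters from RefSeq on GRCm38.p6.

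Values in every library were given for tested fibrillar and type IV genes and for the most abundant member of each other class, with fold changes for members with an unadjusted p under 0.05 or in the class comparison. From each pathway list, the gene highest in normalized count and up to 3 with the smallest p were named. The members and lists were chosen with earlier results of these data known. The scripts were tested on simulated data. Alternatives covered the pseudocount, the filter, the scaling, the count tools, marker scores as covariates and each library left out.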

Additional observations from a re-analysis of the deposited data

Results flagged for a closer look

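For 2 collagen genes the effect of genotype had opposite signs at the 2 ages, with mutant and WT libraries apart each time by normalized count. The permutation test of the difference between ages adds nothing here, since that separation by itself fixes its p. For Col14a1, a FACIT collagen, KO minus WT was -0.54 at 10 weeks and 0.27 at 30 weeks on the log2 scale, a difference of 0.82. For Col7a1, the anchoring fibril chain, A537T minus WT was -1.10 and 1.06, a difference of 2.16. Opposite separation was found for 1 of 35 collagen genes in each line, beside 1.4% of all genes in KO and 1.62% in A537T mice. In CPM the libraries overlapped for Col14a1 in KO mice at 30 weeks. The WT values of Col7a1 at 10 weeks were each 1.31 times higher in the A537T than in the KO table, and with those of the KO table the libraries overlapped and the log2 ratio of mean CPM moved from -0.86 to -0.48. With marker scores as covariates the effect of A537T on Col7a1 was -0.44 ± 0.39 (skeletal muscle, 10 weeks) and 0.40 ± 0.29 (seminal vesicle, 30 weeks).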

How the results depend on the processing

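No paired analysis was possible because the table columns carry no replicate number. Covariates of seminal vesicle at 10 weeks and skeletal muscle at 30 weeks, the ratio of main chains, WT from the other table and coding length for single genes were chosen after seeing the data. Among single genes, 3 values changed sign: Col4a6 in A537T at 10 weeks with the skeletal muscle covariate (-0.063), Col4a6 in KO at 30 weeks without library 5AF (from -2.57 to 0.18 over libraries left out) and Elac2 in A537T at 30 weeks with the seminal vesicle covariate (0.19). DESeq2 called 2 collagen genes in KO at 10 weeks and 1 in A537T at 30 weeks. Leaving out a library gave 0 to 9 called genes in KO at 10 weeks (9 without 10AF), 0 in A537T at 10 weeks, 0 to 4 in KO at 30 weeks (4 without 5AF) and 0 to 5 in A537T at 30 weeks (5 without 8AF). The log2 ratio of fibrillar to type IV, mutant over WT, was -0.042 with main chains in KO at 10 weeks, and in A537T at 30 weeks 0.44 with types XV and XVIII added to type IV and 0.21 with main chains. The fibrillar median in A537T at 10 weeks was -0.048 with the skeletal muscle covariate. The cause was not tested. Over all alternatives, 536 single-gene values kept their direction and side of the threshold, and 223 summary values moved by less than the spread between replicates or kept their count. None of the single genes was called in the main fit, so keeping a side meant staying uncalled. The size of a gene's change did not enter that count. Of 168 medians and ratios, 16 changed sign. Over libraries left out, medians spanned 0 for the fibrillar genes in KO at 10 weeks (-0.13 to 0.0092) and A537T at 30 weeks (-0.18 to 0.14) and for the type IV genes in KO (-0.0050 to 0.082) and A537T at 30 weeks (-0.023 to 0.10). The skeletal muscle covariate took the type IV median in A537T at 10 weeks to -0.022. With 3 mice per group, no collagen gene passed the adjusted threshold with limma on all libraries.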
